A study of Mus musculus with 12 samples.

Results

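AMPA and kainate receptors are the receptors that carry fast excitatory transmission, and the 9 genes described here encode all their pore-forming subunits: Gria1 to Gria4 for AMPA receptors and Grik1 to Grik5 for kainate receptors. Their RNA was followed across 4 groups of mouse brain samples. The members were taken by symbol: every probe set whose platform annotation named 1 of these genes and no other was kept. That gave 18 probe sets for 9 of the 18193 genes that the array measured through a probe set of their own, 10 for the AMPA and 8 for the kainate genes.

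The samples came from adult females, 38 to 40 weeks old, on a C57BL/6 background after 6 generations of back-crossing, and each of the 4 groups had 3 arrays. The groups were APPsα-DM hippocampus, APLP2-KO hippocampus, APPsα-DM prefrontal cortex and APLP2-KO prefrontal cortex. All 12 arrays are from mice without Aplp2 (APLP2-/-), a relative of the gene for the amyloid precursor protein APP. The APPsα-DM mice (APPα/α APLP2-/-) carry in addition an App allele edited to encode only the secreted ectodomain APPsα, as this allele is generally described. App is intact in APLP2-KO mice, so the genotype comparison sets secreted APPsα alone against full-length APP, both without APLP2. The labels state 3 mice per genotype but not which arrays share a mouse, and a wild type was not analysed here.

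An AMPA receptor is a tetramer of GluA1 to GluA4, the products of Gria1 to Gria4, and opens within milliseconds of binding glutamate. GluA2, whose RNA is edited at a pore residue, makes the channel nearly impermeable to calcium, and GluA1 is the subunit whose delivery to synapses is best known from plasticity in hippocampal CA1 neurons. Kainate receptors combine GluK1 to GluK3, which form channels by themselves, with the high-affinity subunits GluK4 and GluK5, which need a partner from the other class. In the hippocampus they are best known from the mossy fibre synapses of dentate granule cells on CA3 neurons.

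The start regions of 6 of the 9 genes were found in the RefSeq promoter table (build GRCm38.p6), each covering 250 bases before to 50 bases after the gene's start. The 5 shown are of genes whose brightest probe set differed between hippocampus and cortex in both genotypes. Genes higher in hippocampus (Gria2, Grik2, Grik4) can thus be read beside genes lower there (Gria4, Grik3). Gria1 was also higher in hippocampus in both genotypes, but the promoter table held no entry for it. Capitals mark 3 motifs searched on both strands: the GC box GGGCGG, the E-box CANNTG and the CRE TGACGTCA. No match of one motif overlapped a match of another in these sequences.
Gria2, chr3:80802786-80803085, minus strand: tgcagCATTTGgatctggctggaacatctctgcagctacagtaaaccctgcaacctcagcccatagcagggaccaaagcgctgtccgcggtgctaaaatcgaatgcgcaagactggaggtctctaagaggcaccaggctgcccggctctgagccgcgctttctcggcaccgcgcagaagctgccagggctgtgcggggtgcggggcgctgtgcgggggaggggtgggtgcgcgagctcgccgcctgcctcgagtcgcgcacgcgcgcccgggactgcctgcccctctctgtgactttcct
Grik2, chr10:49788705-49789004, minus strand: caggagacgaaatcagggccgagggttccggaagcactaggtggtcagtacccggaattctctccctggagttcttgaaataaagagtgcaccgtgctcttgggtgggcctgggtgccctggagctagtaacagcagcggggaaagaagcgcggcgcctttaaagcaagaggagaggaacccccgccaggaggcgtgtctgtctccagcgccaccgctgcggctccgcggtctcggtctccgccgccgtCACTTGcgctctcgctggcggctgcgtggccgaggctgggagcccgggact
Grik4, chr9:42944322-42944621, minus strand: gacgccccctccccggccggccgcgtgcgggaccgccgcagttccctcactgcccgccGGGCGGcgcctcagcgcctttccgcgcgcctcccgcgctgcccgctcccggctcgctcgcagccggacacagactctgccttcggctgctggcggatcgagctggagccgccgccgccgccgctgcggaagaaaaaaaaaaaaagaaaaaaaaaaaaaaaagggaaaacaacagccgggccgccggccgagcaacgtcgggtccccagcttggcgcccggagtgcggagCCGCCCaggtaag
Gria4, chr9:4796185-4796484, minus strand: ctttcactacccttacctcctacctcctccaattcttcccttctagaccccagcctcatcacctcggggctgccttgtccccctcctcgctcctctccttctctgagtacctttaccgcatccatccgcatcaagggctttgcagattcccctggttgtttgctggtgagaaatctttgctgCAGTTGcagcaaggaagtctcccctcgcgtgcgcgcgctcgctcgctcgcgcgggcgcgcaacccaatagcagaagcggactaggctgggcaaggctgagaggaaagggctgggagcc
Grik3, chr4:125490446-125490745, plus strand: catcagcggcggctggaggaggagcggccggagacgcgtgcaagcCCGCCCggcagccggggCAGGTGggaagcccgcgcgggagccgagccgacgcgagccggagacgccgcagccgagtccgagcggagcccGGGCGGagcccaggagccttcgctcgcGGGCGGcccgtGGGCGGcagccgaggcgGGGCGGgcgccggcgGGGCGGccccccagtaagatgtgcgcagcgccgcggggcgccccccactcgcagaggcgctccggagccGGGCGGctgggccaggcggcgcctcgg

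The Grik3 region held 7 GC boxes and 82.0% G and C, against 52.7% for the median promoter of the table. The other regions shown also lay above that median, with 70.0% for Grik4, 65.7% for Gria2, 64.7% for Grik2 and 59.7% for Gria4. Grik4 held 2 GC boxes, and Gria2, Gria4 and Grik2 held none. Of the 32841 promoters in the table, 35.7% held at least 1 GC box. The E-box matched once each in Gria2, Gria4, Grik2 and Grik3, and 72.3% of all promoters held it. None of the 5 held the CRE, which 1.79% of all promoters held. These matches are descriptions of the letters in the window.

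The deposited values are RMA signals on a log2 scale, with array medians between 5.86 and 5.91, so that a difference of 1 is a doubling of the signal. A signal of one probe set cannot be set against that of another. The signal of App was lower in APPsα-DM mice in both tissues: App probe set 1 read 7.87 to 7.98 in APPsα-DM hippocampus against 12.49 to 12.61 in APLP2-KO hippocampus, and 7.70 to 8.20 in APPsα-DM cortex against 12.52 to 12.77 in APLP2-KO cortex. Probe set 2 differed by -1.91 in hippocampus and -1.67 in cortex, probe set 3 by 0.05 and -0.11, and probe set 4 by -0.19 and -0.35. Probe sets 1 and 2 passed the limma test used below, and 3 and 4 did not. The App part of all 12 genotype labels was thus matched by probe sets 1 and 2. Where these probes lie in the edited allele was not analysed here, and the Aplp2 part of the labels was not checked. Marker genes matched the tissue labels by the same limma test. In both genotypes 9 of 9 markers of hippocampal CA neurons and 6 of 7 of dentate granule cells passed as higher in hippocampus. Of 9 markers of cortical excitatory neurons, 7 passed as lower in hippocampus in APPsα-DM and 8 in APLP2-KO. The cortex pieces also carried striatal markers, whose mean signal lay at 9.85 to 10.54 in the cortex arrays and 7.49 to 7.91 in the hippocampus arrays. Ttr, a choroid plexus gene, set APPsα-DM cortex array 2 (14.18) and APLP2-KO cortex array 3 (14.03) apart from the other cortex arrays (8.20 to 9.42), and it was high and variable in hippocampus (10.63 to 14.36). Those 2 arrays are called the high-Ttr cortex arrays from here. Member results of tissue comparisons, and of genotype comparisons within a tissue, that change without them are given with both values. Genes other than the members were not examined without them.

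Hippocampus and cortex differed in most of the subunit genes, and in the same direction in both genotypes. Gria1, Gria2, Grik2 and Grik4 were higher in hippocampus, and Gria4 and Grik3 were lower, while Gria3 and Grik5 did not pass the test and Grik1 passed by a different probe set in each genotype. Of the 18 probe sets, 7 were higher and 3 lower in hippocampus in APPsα-DM mice, where 10.6% of all 45037 probe sets passed, 5.21% higher and 5.42% lower (limma, Benjamini-Hochberg adjusted p under 0.05 over all probe sets). In APLP2-KO mice 8 were higher and 3 lower, beside 12.6% of all probe sets, 5.62% higher and 6.98% lower. The members are brighter than most probe sets, and among probe sets at or above the median brightness the shares were 16.7% and 20.4%. Both genotypes shared 9 of these calls, 6 higher and 3 lower, a state that 8.31% of all probe sets reached, and all 18 differences had the same sign in both. The arrays of the tissues did not overlap for 11 of the 18 probe sets in APPsα-DM and 13 in APLP2-KO, beside 27.4% and 30.2% of all probe sets. With 1 probe set per gene, the brightest, 7 of 9 genes passed in APPsα-DM (13.9% of all genes) and 6 of 9 in APLP2-KO (16.5%). The median difference over the 18 was 0.10 in APPsα-DM and 0.20 in APLP2-KO, against -0.01 and 0.01 over all probe sets. Leaving out APPsα-DM hippocampus array 3 lowered the count in APPsα-DM to 5. In bulk tissue, fewer cells of a type and less RNA per cell cannot be told apart.

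**Figure D1:**
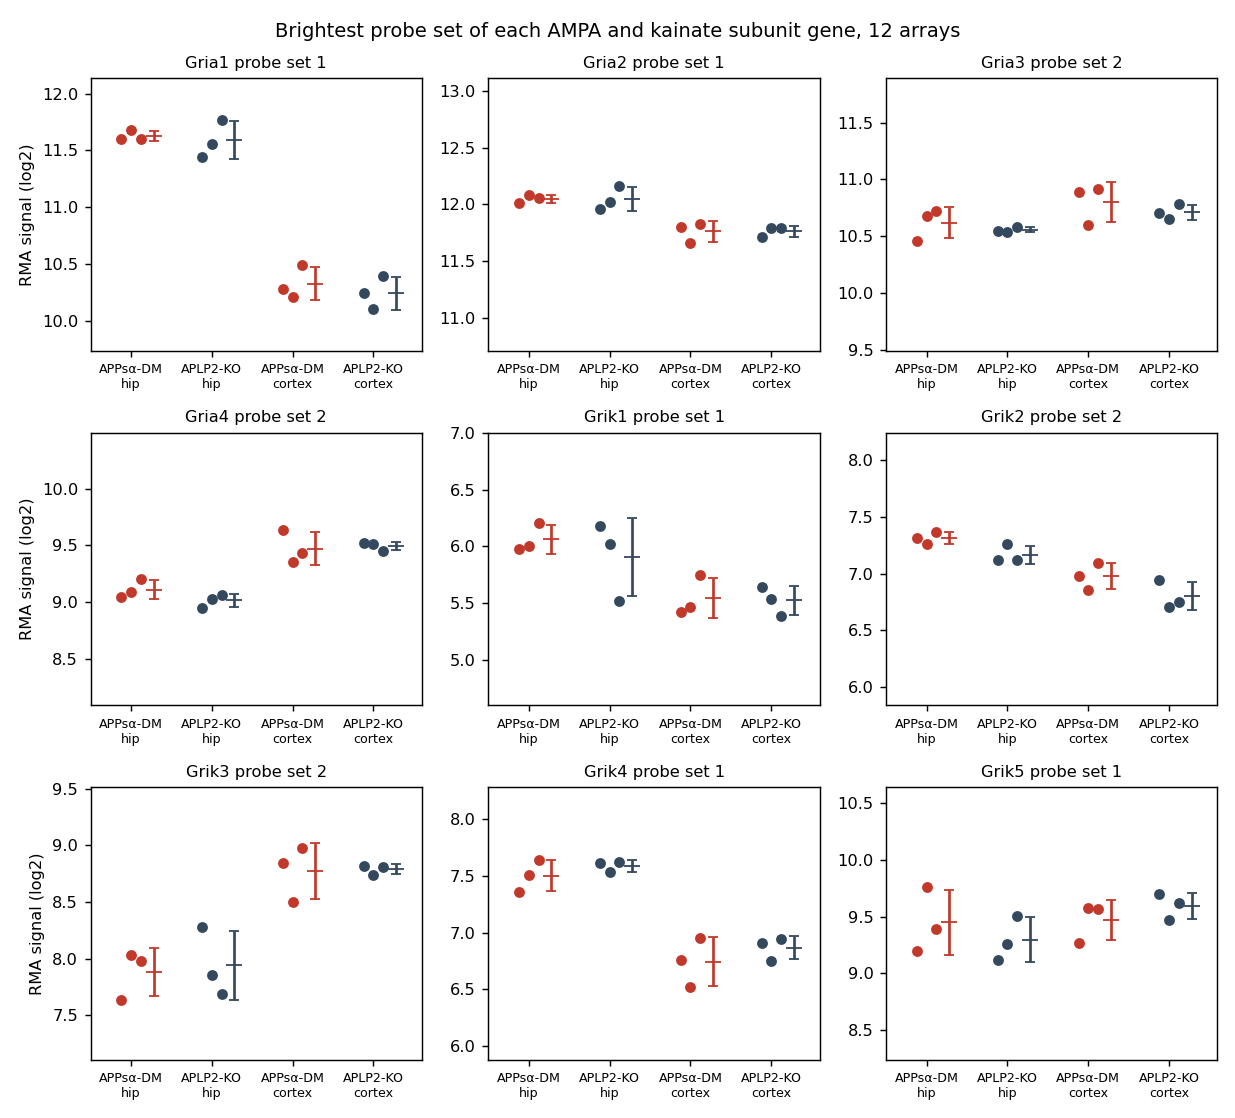
Signal of the brightest probe set of each subunit gene (vertical axes, RMA signal on a log2 scale, each panel spanning the same range) on each of the 12 arrays. Points are single arrays, with the APPsα-DM group in red left of the APLP2-KO group in blue for hippocampus and then cortex, and the bar beside them is the mean ± SD of 3 arrays. Gria1, Gria2, Grik2 and Grik4 lie higher in hippocampus, Gria4 and Grik3 lower, and red and blue points of a tissue lie close together.

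Gria1, which encodes the AMPA subunit GluA1 (chromosome 11), had the largest tissue difference of the 9 genes. Its brighter probe set 1 read 11.60, 11.68 and 11.60 in APPsα-DM hippocampus, against 10.28, 10.21 and 10.49 in APPsα-DM cortex. In APLP2-KO mice the arrays read 11.44, 11.56 and 11.77 in hippocampus, against 10.24, 10.10 and 10.39 in cortex. Every hippocampus array lay above every cortex array of either genotype, and the genotypes overlapped within each tissue. The difference was 1.30 ± 0.10 (SE) in APPsα-DM, 2.46-fold, with a limma adjusted p of 4.81e-06. It was 1.35 ± 0.10 in APLP2-KO, 2.54-fold (adjusted p = 2.95e-06). Probe set 2 gave 1.14 ± 0.18 and 1.16 ± 0.18, both past the threshold. Both probe sets kept their calls under every alternative that was run.

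Gria2 (chromosome 3), the gene of the subunit that limits calcium entry, was higher in hippocampus by a much smaller step. Probe set 1 read 12.01, 12.08 and 12.06 in APPsα-DM hippocampus, against 11.80, 11.66 and 11.83 in APPsα-DM cortex. Its APLP2-KO values were 11.96, 12.02 and 12.16 in hippocampus, against 11.71, 11.79 and 11.79 in cortex. The tissues did not overlap in either genotype. The rise was 0.29 ± 0.07 in APPsα-DM (1.22-fold, adjusted p = 0.0214) and 0.29 ± 0.07 in APLP2-KO (1.22-fold, adjusted p = 0.0193). Probe set 2 rose by 0.42 ± 0.09 in APPsα-DM (adjusted p = 0.0108) and by 0.44 ± 0.09 in APLP2-KO (adjusted p = 0.00691). Probe set 3, the dimmest of the gene, differed by 0.11 and 0.12, did not pass, and followed probe set 1 weakly over the 12 arrays (a Pearson correlation of 0.33, a description only). The call of probe set 1 in APPsα-DM was lost without cortex array 2 (adjusted p = 0.0802), 1 of the high-Ttr arrays, without hippocampus array 2 (0.0647) and without hippocampus array 3 (0.073). In APLP2-KO it was lost without cortex array 1 (adjusted p = 0.0699) and without hippocampus array 3 (0.0857). Without both high-Ttr cortex arrays the adjusted p in APPsα-DM was 0.104. The call of probe set 2 in APPsα-DM was lost without hippocampus array 3 (0.0528).

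Gria3 (chromosome X), which encodes GluA3, did not pass between the tissues. Its brighter probe set 2 read 10.46, 10.68 and 10.72 in APPsα-DM hippocampus, against 10.89, 10.60 and 10.92 in APPsα-DM cortex. In APLP2-KO mice it read 10.55, 10.54 and 10.58 in hippocampus, against 10.70, 10.65 and 10.78 in cortex. The arrays of the tissues overlapped in APPsα-DM and did not overlap in APLP2-KO. The difference was -0.19 in APPsα-DM (95% confidence interval -0.39 to 0.02) and -0.15 in APLP2-KO (-0.36 to 0.05). Probe set 1 gave -0.20 and -0.03.

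Gria4 (chromosome 9), the gene of GluA4, was lower in hippocampus by each of its 3 probe sets, of which 2 passed. The brightest, probe set 2, read 9.04, 9.09 and 9.20 in APPsα-DM hippocampus, against 9.63, 9.35 and 9.43 in APPsα-DM cortex. The APLP2-KO arrays read 8.95, 9.03 and 9.06 in hippocampus, against 9.52, 9.51 and 9.45 in cortex. All 6 hippocampus arrays lay below all 6 cortex arrays. It fell by -0.36 ± 0.08 in APPsα-DM (1.28-fold, adjusted p = 0.0105) and by -0.48 ± 0.08 in APLP2-KO (1.39-fold, adjusted p = 0.00126). The APPsα-DM call of probe set 2 was lost when only the 6 compared arrays were fitted (adjusted p = 0.0549) and with a choroid plexus covariate (0.0507). Probe set 3 fell by -0.45 ± 0.13 in APPsα-DM (adjusted p = 0.046) and by -0.56 ± 0.13 in APLP2-KO (adjusted p = 0.0138). Probe set 1 differed by -0.56 and -0.57 without passing (adjusted p = 0.0654 and 0.0564), and its arrays did not overlap. With genotype and replicate number as a block, a pairing that the labels do not give, probe set 1 passed in APLP2-KO (adjusted p = 0.00951). Without the high-Ttr cortex arrays it passed in APPsα-DM (-0.76, adjusted p = 0.0143) and in APLP2-KO (-0.64, adjusted p = 0.0273). The call of probe set 3 in APPsα-DM was lost without any 1 of 5 arrays: cortex array 1 (adjusted p = 0.17), cortex array 3 (0.113) or hippocampus array 1 (0.148), 2 (0.0832) or 3 (0.0715). In APLP2-KO it was lost without cortex array 2 (0.0501) or hippocampus array 3 (0.0606). GluA4 is known from fast-spiking interneurons, and 5 of 9 interneuron markers were lower in hippocampus in APPsα-DM and 4 of 9 in APLP2-KO. None passed as higher, but 2 of the 9 in APPsα-DM and 3 in APLP2-KO had a difference above 0. Over all genes with 1 probe set each, 7.34% and 9.70% were lower. The mean interneuron marker signal was 9.76 to 9.85 in APPsα-DM hippocampus against 10.17 to 10.25 in APPsα-DM cortex, and 9.61 to 9.75 in APLP2-KO hippocampus against 10.09 to 10.16 in APLP2-KO cortex. The striatal markers carried by the cortex pieces were also lower in hippocampus, 8 of 8 in each genotype (median -2.37 in APPsα-DM and -2.51 in APLP2-KO). The part of interneurons or of striatal cells in the Gria4 difference was not tested.

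**Figure D2:**
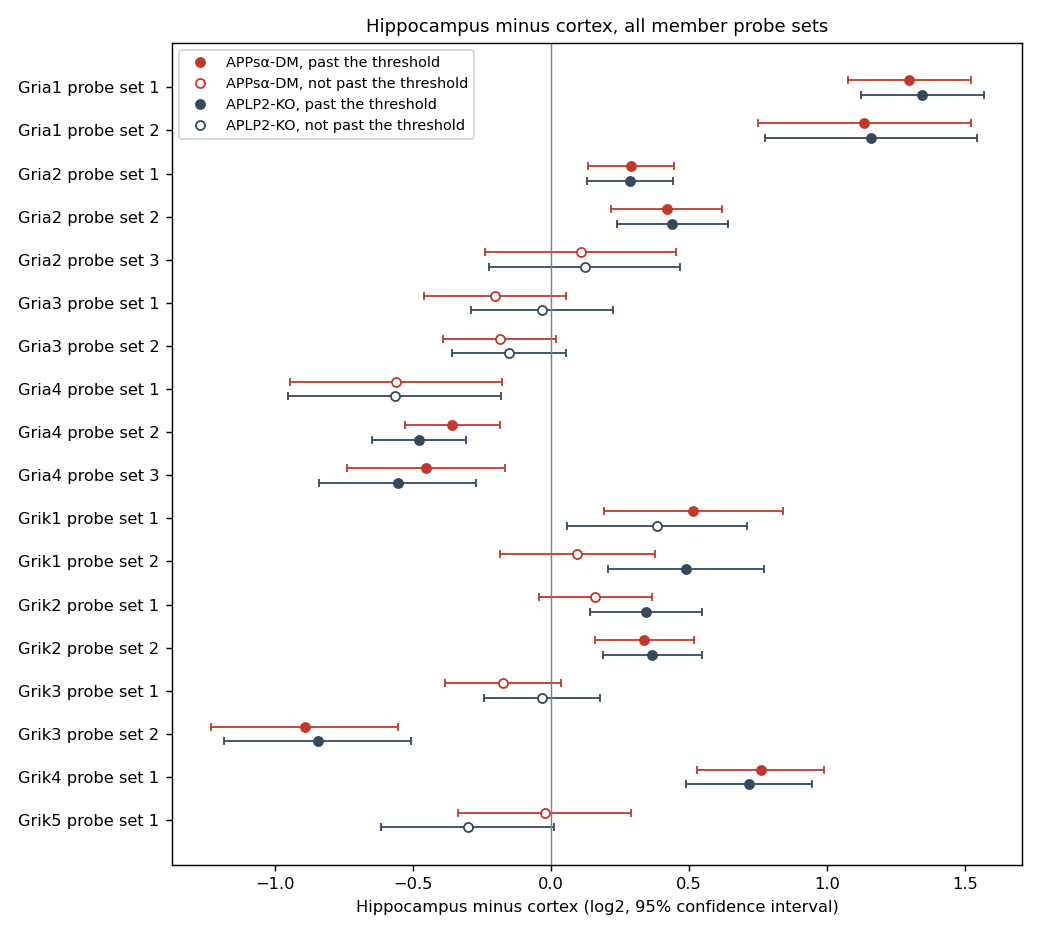
Hippocampus minus cortex for the 18 probe sets (horizontal axis, log2 difference with its 95% confidence interval), in APPsα-DM mice (red, upper point of each pair) and APLP2-KO mice (blue, lower point). Filled points passed the adjusted p threshold of 0.05 and open points did not. The Gria1, Grik4 and Grik3 probe set 2 intervals lie farthest from 0, and the points of a pair lie on the same side of 0 in each row.

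Grik1, which encodes GluK1 (chromosome 16), had 2 probe sets that disagreed, both below the median brightness of the array. Probe set 1 lay at the 48.3rd percentile and probe set 2 at the 17.9th, and the table holds no detection calls. Probe set 1 read 5.98, 6.00 and 6.21 in APPsα-DM hippocampus, against 5.42, 5.47 and 5.75 in APPsα-DM cortex. In APLP2-KO mice it read 6.18, 6.02 and 5.52 in hippocampus, against 5.64, 5.54 and 5.39 in cortex. The tissues separated in APPsα-DM, while APLP2-KO hippocampus array 3 fell among the cortex values. It rose by 0.52 ± 0.15 in APPsα-DM (adjusted p = 0.0458). In APLP2-KO the difference was 0.38 ± 0.15 and did not pass (adjusted p = 0.127). It passed there with genotype and replicate number as a block (0.0243) and without hippocampus array 3 (0.00975). Probe set 2 differed by 0.10 in APPsα-DM without passing (adjusted p = 0.721) and rose by 0.49 ± 0.13 in APLP2-KO (adjusted p = 0.0256). No member differed past the threshold in the test of tissue differences between the genotypes, so these calls are not shown to differ. The call of probe set 1 in APPsα-DM was lost without cortex array 1 (adjusted p = 0.148) or 2 (0.134), or hippocampus array 1 (0.0727), 2 (0.0756) or 3 (0.165), and with another quantile normalisation (0.0609). The mean of both probe sets differed by 0.31 in APPsα-DM without passing (adjusted p = 0.0551) and rose by 0.44 in APLP2-KO (adjusted p = 0.00779). The call of probe set 2 in APLP2-KO was lost without cortex array 2 (0.0596) or 3 (0.0915), or hippocampus array 2 (0.114) or 3 (0.0872). Without both high-Ttr cortex arrays the adjusted p were 0.152 for probe set 1 in APPsα-DM and 0.105 for probe set 2 in APLP2-KO.

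Grik2 (chromosome 10), the gene of GluK2, was higher in hippocampus. Probe set 2, the brighter one, read 7.31, 7.26 and 7.37 in APPsα-DM hippocampus, against 6.98, 6.86 and 7.09 in APPsα-DM cortex. In APLP2-KO mice it read 7.12, 7.26 and 7.12 in hippocampus, against 6.94, 6.71 and 6.75 in cortex. All 6 hippocampus arrays lay above all 6 cortex arrays. It rose by 0.34 ± 0.08 in APPsα-DM (1.26-fold, adjusted p = 0.0196) and by 0.37 ± 0.08 in APLP2-KO (1.29-fold, adjusted p = 0.0106). Probe set 1 differed by 0.16 in APPsα-DM (adjusted p = 0.348) and rose by 0.34 in APLP2-KO (adjusted p = 0.0303). The call of probe set 2 in APPsα-DM was lost without cortex array 1 (adjusted p = 0.0564) or 2 (0.0771), or hippocampus array 1 (0.0524) or 3 (0.0822), and without the 2 high-Ttr cortex arrays (0.0967). In APLP2-KO it was lost without cortex array 2 (0.0507) or hippocampus array 2 (0.0552). That of probe set 1 in APLP2-KO was lost without cortex array 1 (0.113) or 3 (0.0886), or hippocampus array 1 (0.077), 2 (0.0595) or 3 (0.0961), and without the high-Ttr cortex arrays (0.0911).

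Grik3, which encodes GluK3 (chromosome 4), was lower in hippocampus, and its brighter probe set fell most among the brightest probe sets of the 9 genes. Probe set 2 read 7.64, 8.03 and 7.98 in APPsα-DM hippocampus, against 8.84, 8.50 and 8.98 in APPsα-DM cortex. The APLP2-KO values were 8.28, 7.86 and 7.69 in hippocampus, against 8.82, 8.74 and 8.81 in cortex. All hippocampus arrays lay below all cortex arrays. It fell by -0.89 ± 0.16 in APPsα-DM (1.86-fold, adjusted p = 0.00236) and by -0.85 ± 0.16 in APLP2-KO (1.80-fold, adjusted p = 0.00289), and both calls held under every alternative that was run. Probe set 1, the dimmer one, differed by -0.17 and -0.03 and did not pass. The mean of both probe sets fell less, by -0.53 in APPsα-DM (adjusted p = 0.000745) and by -0.44 in APLP2-KO (adjusted p = 0.00245). The mean of the Gria4 probe sets fell by -0.46 and -0.53. The 2 probe sets of Grik3 had a Pearson correlation of 0.29 over the 12 arrays.

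Grik4 (chromosome 9), which encodes the high-affinity subunit GluK4, was higher in hippocampus, with 1 probe set. It read 7.36, 7.51 and 7.64 in APPsα-DM hippocampus, against 6.76, 6.52 and 6.95 in APPsα-DM cortex. In APLP2-KO mice it read 7.61, 7.53 and 7.62 in hippocampus, against 6.91, 6.75 and 6.94 in cortex. The tissues did not overlap. The rise was 0.76 ± 0.11 in APPsα-DM (1.69-fold, adjusted p = 0.000432) and 0.72 ± 0.11 in APLP2-KO (1.64-fold, adjusted p = 0.000555), and both calls held under every alternative that was run.

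Grik5 (chromosome 7), the gene of the other high-affinity subunit GluK5, did not pass. Its single probe set read 9.20, 9.76 and 9.39 in APPsα-DM hippocampus, against 9.27, 9.58 and 9.57 in APPsα-DM cortex. The APLP2-KO arrays gave 9.12, 9.26 and 9.51 in hippocampus, against 9.70, 9.47 and 9.62 in cortex. The tissues overlapped in both genotypes. The difference was -0.02 in APPsα-DM (95% confidence interval -0.34 to 0.29) and -0.30 in APLP2-KO (-0.62 to 0.01). The difference between these was 0.28 ± 0.20, not past the threshold.

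Between the genotypes, none of the 18 probe sets passed in either tissue, while App probe sets 1 and 2 did in both. In hippocampus 0 of 18 passed, beside 0.00888% of all probe sets, and 1 of 18 had an unadjusted p under 0.05, beside 4.11% of all. In cortex 0 of 18 passed, beside 0.00888%, and 0 of 18 had an unadjusted p under 0.05, beside 4.50%. The test of whether the genotype effect differs between the tissues called 0 of 18, as it did 0% of all probe sets (3.79% at an unadjusted p under 0.05, and 0 of the 18). The mean effect over both tissues also called 0 of 18, beside 0.00888%, with 3 of 18 at an unadjusted p under 0.05, beside 4.03% of all. The median difference over the 18 was 0.01 in hippocampus and 0.01 in cortex, against -0.00 and 0.00 over all probe sets. For the brightest probe set of each gene, the 95% confidence intervals of APPsα-DM minus APLP2-KO together spanned -0.40 to 0.48 in hippocampus and -0.44 to 0.35 in cortex. Over all 18 probe sets the intervals reached from -0.86 to 0.72 in hippocampus and from -0.46 to 0.74 in cortex, and single intervals were narrower.

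**Figure D3:**
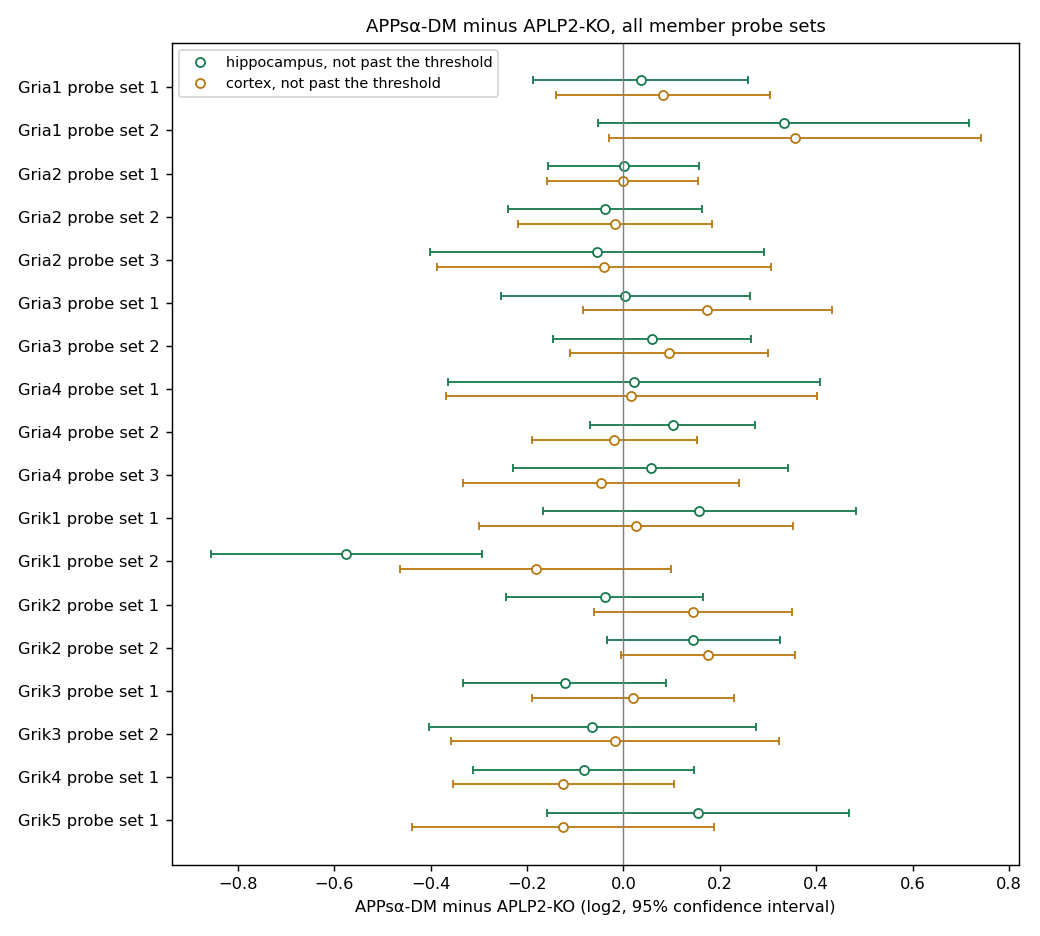
APPsα-DM minus APLP2-KO for the 18 probe sets (horizontal axis, log2 difference with its 95% confidence interval), in hippocampus (green, upper point of each pair) and cortex (orange, lower point). No point passed the adjusted p threshold of 0.05. The interval of Grik1 probe set 2 in hippocampus, a dim probe set, lies below 0, and the other intervals hold 0.

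None of the 10 AMPA subunit probe sets passed between the genotypes. For Gria1 probe set 1 the difference was 0.04 ± 0.10 in hippocampus and 0.08 ± 0.10 in cortex. Gria1 probe set 2 gave larger values, 0.33 ± 0.18 in hippocampus and 0.36 ± 0.18 in cortex, with adjusted p of 0.9998 and 0.9996 and overlapping arrays. Its mean effect over both tissues was 0.34 ± 0.14 (unadjusted p = 0.0389, limma adjusted p = 0.9999). For Gria2 probe set 1 the difference was 0.00 ± 0.07 in hippocampus, with a 95% confidence interval of -0.16 to 0.16, and -0.00 ± 0.07 in cortex, with the interval -0.16 to 0.16. These intervals are the narrowest among the brightest probe sets of the 9 genes. Gria3 probe set 2 differed by 0.06 and 0.09 in hippocampus and cortex, and Gria4 probe set 2 by 0.10 and -0.02. Without the 2 high-Ttr cortex arrays the cortex difference of Gria3 probe set 2 was 0.23 (adjusted p = 0.954) and that of Gria2 probe set 2 was 0.12 (adjusted p = 0.961), against -0.02 with them.

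Among the kainate subunits, Grik2 and the dimmer probe set of Grik1 had the smallest unadjusted p values of the mean genotype effect. Grik1 probe set 2 read 3.74, 3.33 and 3.71 in APPsα-DM hippocampus, against 3.89, 4.39 and 4.23 in APLP2-KO hippocampus. In cortex it read 3.56, 3.42 and 3.52 in APPsα-DM mice, against 3.74, 3.72 and 3.58 in APLP2-KO mice. The APPsα-DM arrays lay below all APLP2-KO arrays in both tissues, at a level where most probe sets of the array are brighter. The difference was -0.58 ± 0.13 in hippocampus (unadjusted p = 0.000765, limma adjusted p = 0.988) and -0.18 ± 0.13 in cortex (adjusted p = 0.9996), and the difference between them was -0.39 ± 0.18, not past the threshold. Grik1 probe set 1, the brighter one, went the other way, by 0.16 ± 0.15 in hippocampus and 0.03 ± 0.15 in cortex. The mean of both probe sets differed by -0.21 in hippocampus (adjusted p of 0.9999). Over all probe sets, 9.88% had genotype groups that did not overlap in hippocampus and 8.73% in cortex, and the members had 2 and 1 of 18. Grik1 lies on chromosome 16 as App does, with 10 protein-coding genes between them in the RefSeq order. The 23 probe sets of those 10 genes gave 0 calls in either tissue. With 0.00888% of all probe sets passing in each tissue, that count says little. Of the 23, 2 had an unadjusted limma p under 0.05 in hippocampus, beside 4.11% of all probe sets, and 1 in cortex, beside 4.5%. The bearing of this position on the Grik1 values was not tested.

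Grik2 probe set 2 read higher in APPsα-DM mice on average in both tissues. In hippocampus the APPsα-DM arrays were all above the APLP2-KO arrays, by 0.15 ± 0.08, with 7.26 as the lowest value of APPsα-DM and the highest of APLP2-KO at 2 decimals. In cortex the difference was 0.17 ± 0.08 and the arrays overlapped. The mean effect was 0.16 ± 0.06 (unadjusted p = 0.0308, limma adjusted p = 0.9999), not past the threshold. Grik3 probe set 2 differed by -0.06 in hippocampus and -0.02 in cortex, Grik4 by -0.08 and -0.13, and Grik5 by 0.15 and -0.13. The Grik4 difference in cortex was 0.02 without the high-Ttr arrays. In hippocampus 8 of 8 choroid plexus markers had a genotype difference above 0 (median 1.09), and in cortex 8 of 8 striatal markers did (median 0.23), with none of either list past the threshold. Likewise 6 of 6 endothelial markers were above 0 in hippocampus (median 0.32) and 9 of 9 cortical excitatory neuron markers below 0 in cortex (median -0.11), none past the threshold. Their part in the member values was not tested.

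The auxiliary subunits, which travel with the receptors and set their gating and delivery, differed between the tissues more often than not. Of the 16 AMPA receptor auxiliary genes, 4 were higher and 7 lower in hippocampus in APPsα-DM mice, and 4 were higher and 6 lower in APLP2-KO mice, read against 6.59% higher and 7.34% lower among all genes with 1 probe set each in APPsα-DM, and 6.78% higher and 9.70% lower in APLP2-KO. The median difference was -0.25 in APPsα-DM and -0.19 in APLP2-KO, against -0.02 and -0.01 over all genes. Shisa6, which slows AMPA receptor desensitisation, rose by 3.42 ± 0.12 in APPsα-DM (adjusted p = 9.5e-09) and by 3.56 ± 0.12 in APLP2-KO (adjusted p = 6.78e-09). Cnih2, a cornichon that helps GluA1 receptors leave the endoplasmic reticulum, rose by 0.82 ± 0.11 in APPsα-DM and by 0.80 ± 0.11 in APLP2-KO. Cpt1c, another factor of the early secretory route, rose by 0.44 and 0.43. Gsg1l, which dampens AMPA receptor currents, fell by -0.997 ± 0.15 in APPsα-DM (adjusted p = 0.000844) and by -1.33 ± 0.15 in APLP2-KO (adjusted p = 7.36e-05). The transmembrane AMPA receptor regulatory proteins were singled out after their values were seen. Cacng2, Cacng3, Cacng4 and Cacng7 fell in both genotypes, by values between -0.39 and -0.72 in APPsα-DM and between -0.43 and -0.72 in APLP2-KO. Cacng5 did not pass, at -0.29 in APPsα-DM (adjusted p = 0.58) and 0.28 in APLP2-KO (adjusted p = 0.595). Cacng8 fell by -0.72 in APPsα-DM (adjusted p = 0.00166) and differed by -0.38 in APLP2-KO (adjusted p = 0.0603), and the difference between these was not past the threshold.

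**Figure D4:**
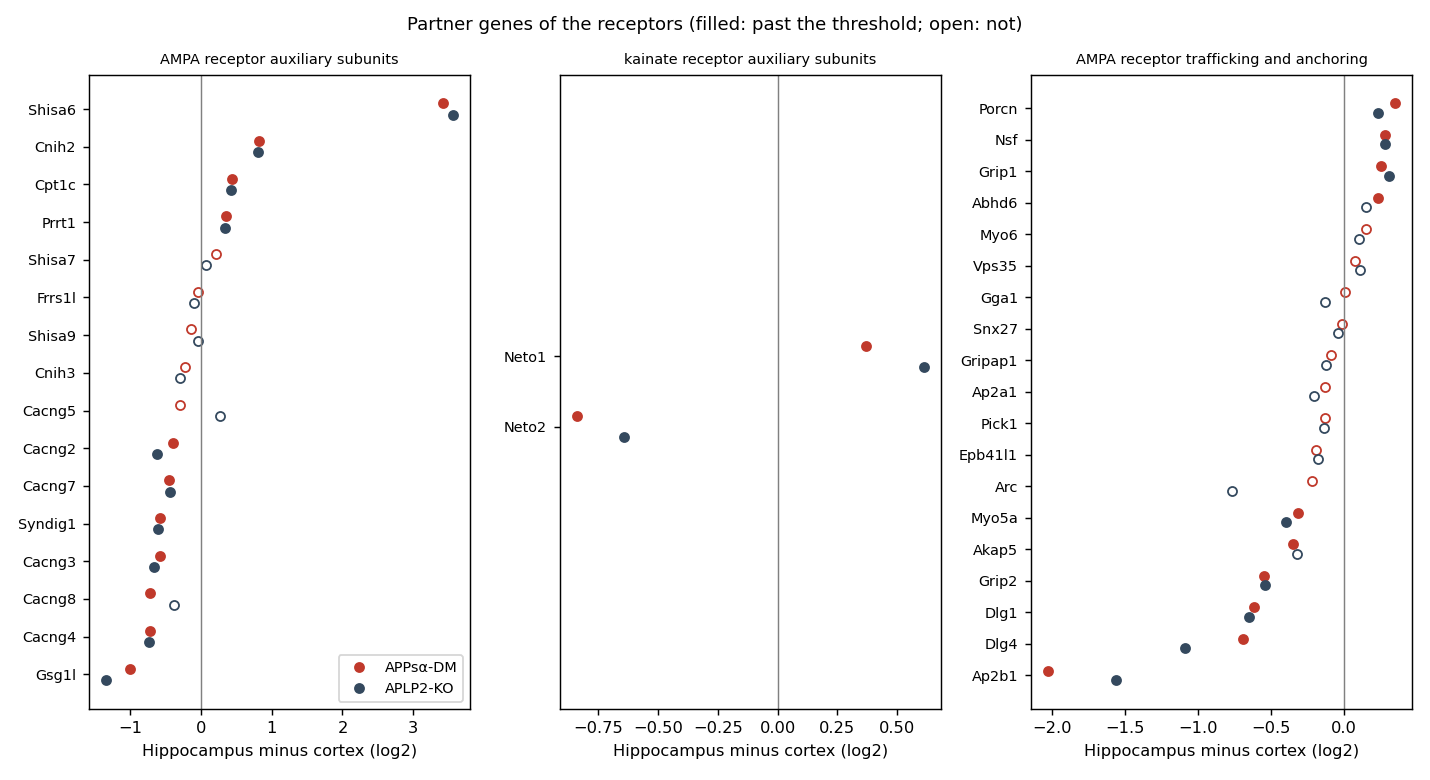
Hippocampus minus cortex (horizontal axes, log2) for the auxiliary subunits of AMPA receptors (left), those of kainate receptors (middle) and genes of AMPA receptor trafficking and anchoring (right), 1 probe set per gene, ordered by the APPsα-DM value. Red points, the upper of each pair, are APPsα-DM mice, blue points are APLP2-KO mice, and filled points passed the adjusted p threshold of 0.05. Shisa6 stands at 3.42 and 3.56 and Ap2b1 at -2.02 and -1.56.

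Both auxiliary genes of kainate receptors passed, in opposite directions. Neto1, whose product slows kainate receptor decay at mossy fibre synapses, rose by 0.37 ± 0.08 in APPsα-DM hippocampus (adjusted p = 0.0126) and by 0.61 ± 0.08 in APLP2-KO hippocampus (adjusted p = 0.000311). Neto2 fell by -0.84 ± 0.09 in APPsα-DM (adjusted p = 5.82e-05) and by -0.64 ± 0.09 in APLP2-KO (adjusted p = 0.000398). Among 6 further kainate receptor partners, 1 was higher and 1 lower in APPsα-DM, and 2 were higher and 1 lower in APLP2-KO. Over all genes with 1 probe set each, 6.59% were higher and 7.34% lower in APPsα-DM. In APLP2-KO these shares were 6.78% and 9.70%. With so few genes, the counts of both kainate lists are a description only. C1ql2, a secreted protein of mossy fibres that recruits kainate receptors and is also 1 of the dentate granule cell markers, rose by 4.61 ± 0.16 in APPsα-DM and by 4.16 ± 0.16 in APLP2-KO. The actin cross-linker gene Actn2 fell by -0.68 and -0.50.

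Of 19 genes of AMPA receptor trafficking and anchoring, 4 were higher and 6 lower in hippocampus in APPsα-DM, and 3 were higher and 5 lower in APLP2-KO. The shares over all genes were 6.59% higher and 7.34% lower in APPsα-DM, and 6.78% higher and 9.70% lower in APLP2-KO, here as for the smaller lists that follow. Ap2b1, a subunit of the clathrin adaptor that removes receptors from the surface, fell by -2.02 ± 0.26 in APPsα-DM and by -1.56 ± 0.26 in APLP2-KO. The scaffold genes Dlg1 (SAP97) and Dlg4 (PSD-95) fell as well, Dlg1 by -0.62 and -0.65 and Dlg4 by -0.69 and -1.09. Grip2, which binds the tails of GluA2 and GluA3, fell by -0.55 in APPsα-DM and by -0.54 in APLP2-KO. Among 5 measured pentraxins and secreted partners, 1 rose and 1 fell in each genotype. Nptx1, a neuronal pentraxin that gathers AMPA receptors, rose by 0.77 ± 0.09 in APPsα-DM and by 0.43 ± 0.09 in APLP2-KO. Nptx2 fell by -0.80 ± 0.23 in APPsα-DM (adjusted p = 0.0472) and by -1.10 ± 0.23 in APLP2-KO (adjusted p = 0.00697). Of the 3 RNA editing enzyme genes, Adarb2 rose by 0.76 and 0.70, while Adarb1, whose product edits the GluA2 pore site, differed by -0.24 in APPsα-DM (adjusted p = 0.0918) and fell by -0.46 in APLP2-KO (adjusted p = 0.00251).

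None of the genes in these 6 partner lists passed between the genotypes in either tissue, where 0.011% of all genes did. In hippocampus the median difference was 0.03 over the 16 AMPA auxiliary genes and -0.00 over the 19 trafficking genes, against 0.01 over all genes. In cortex it was -0.02 and -0.01, against 0.00 over all genes. The widest cortex value was that of Arc, an activity-induced gene of AMPA receptor removal, at -1.45 ± 0.51 with overlapping arrays (adjusted p = 0.9996), and its hippocampus value was -0.90 ± 0.51. Dlg4 differed by -0.08 ± 0.12 in hippocampus and -0.48 ± 0.12 in cortex (adjusted p = 0.9996). Neto1 and Neto2 differed by -0.06 and 0.03 in hippocampus and by 0.18 and 0.22 in cortex, and none of these passed.

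Among 11627 other genes, those whose pattern over the 12 arrays was most like each subunit gene were found by Pearson correlation, given as a description since tissue sets most of the variation in all of them. Gria1 was closest to Nrp2 (0.997), Fgd4 (0.996) and Rfx3 (0.994). Nrp2, a semaphorin receptor, was higher in hippocampus by 1.52 in APPsα-DM and 1.66 in APLP2-KO. Gria2 was closest to Tacc2 (0.985), Pgbd5 (0.984) and Noct (0.983), Gria4 to Hecw1 (0.969), Kcnh1 (0.968) and Atrnl1 (0.967), and Grik2 to Ipo4 (0.972), Rps4l (0.957) and Hap1 (0.951). Grik3 was closest to Tbr1 (0.980), a transcription factor and 1 of the cortical excitatory neuron markers, which differed by -1.25 in APPsα-DM and -1.30 in APLP2-KO. Grik4 was closest to Chst8 (0.982), which was 1.14 higher in APPsα-DM hippocampus and 1.00 higher in APLP2-KO hippocampus. Gria3 (Fam160b1, 0.910), Grik1 (Abca8a, 0.932) and Grik5 (Spsb1, 0.933) had lower values with their closest genes.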

How the data were processed

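Total RNA of 12 tissue samples was hybridised to Affymetrix arrays. The deposited values are log2 signals made with RMA and the affy package, per the submitters' processing notes. The tool versions, and whether the 12 arrays went through RMA in 1 run, are not stated there. The method corrects background, normalises by quantiles and summarises probes. Gene symbols came from the platform annotation, updated through the RefSeq table of GRCm38.p6. Of 45101 probe sets, 64 controls were left out and 45037 tested with no filter on dim signals, so that all 18 member probe sets entered the tests.

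In R 4.3.3, limma 3.58.1 fitted the 4 group means over 12 arrays (8 residual and 4.25 prior degrees of freedom), and two-sided p-values were Benjamini-Hochberg adjusted over all tested probe sets, at a threshold of 0.05. The mean genotype effect used the average of same-numbered cortex and hippocampus arrays. Errors are moderated SE, and p-values rest on the spread between these samples. The main fit treats the 12 arrays as independent and has no term for the mouse. With 3 mice per genotype stated, cortex and hippocampus arrays may come from the same mice. Precision is limited by the number of arrays, and a genotype difference had a median SE of 0.0938.

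Probe sets of a gene are numbered in order of identifier, and the brightest over 12 arrays stands for the gene. Every member was named, App served as label check, and from each list up to 4 genes with the smallest p were named, except where stated. The members and lists were chosen with earlier results of these data known. Scripts were tested on simulated data. The deviations of same-numbered cortex and hippocampus arrays had correlations of 0.109, 0.131 and 0.155 in APLP2-KO. In APPsα-DM the correlations were 0.0785, 0.0193 and 0.0372. Between the genotypes, where no mouse is shared, they ranged from -0.25 to 0.21. Values as high as those of APLP2-KO thus arose without a shared mouse, and arrays of different numbers were not compared. Pairing by number, which the block and the mean genotype effect use in both genotypes, is therefore an assumption.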

Additional observations from a re-analysis of the deposited data

How the results depend on the processing

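The alternatives were a fit of the compared arrays alone, a brightness filter, a variance trend with a robust prior, array weights, another quantile normalisation, a choroid plexus covariate, the replicate block, the mean of a gene's probe sets, leaving out each array, and leaving out the 2 cortex arrays high in Ttr, which was chosen after seeing the data. No call changed direction. Averaging a gene's probe sets gave 6 called genes of 9 in APPsα-DM and 7 of 9 in APLP2-KO for hippocampus against cortex. Leaving out single arrays gave 5 to 9 of 18 probe sets in APPsα-DM, lowest without hippocampus array 3, and 8 to 10 in APLP2-KO. The other alternatives gave 7 to 11 and 9 to 13. Of the 10 calls in APPsα-DM, 4 were kept in every alternative, and of the 11 in APLP2-KO, 6 were kept. With only the 6 compared arrays in the fit, Gria2 probe set 1 (adjusted p = 0.057) and Gria4 probe sets 2 (0.0549) and 3 (0.0827) lost their calls in APPsα-DM. With the choroid plexus covariate, Gria2 probe set 1 (adjusted p = 0.0518) and Gria4 probe sets 2 (0.0507) and 3 (0.179) lost their calls in APPsα-DM, and Grik1 probe set 2 (0.0549) and Grik2 probe set 1 (0.0564) lost theirs in APLP2-KO. The cause was not tested. With genotype and replicate number as a block, the calls numbered 10 in APPsα-DM and 13 in APLP2-KO. In APPsα-DM the block gained Gria4 probe set 1 (adjusted p = 0.0115) and lost Gria4 probe set 3 (0.0711). For the genotype comparisons within a tissue the block was the replicate number alone, and it changed no call. The genotype comparisons stayed at 0 calls in every alternative. Their lowest adjusted p was 0.0827 in hippocampus, for Grik1 probe set 2 with array weights, and 0.944 in cortex. Whether the dim Grik1 probe sets read above background was not tested.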

Other observations

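Over all genes, 6.59% were called higher and 7.34% lower in hippocampus in APPsα-DM, and 6.78% higher and 9.70% lower in APLP2-KO. Of 6 measured NMDA receptor subunit genes, Grin2a and Grin3a were higher in hippocampus in both genotypes and none was lower. Grin2a, which encodes the subunit that speeds the decay of NMDA currents, rose by 0.80 ± 0.14 in APPsα-DM (adjusted p = 0.00273) and by 0.67 ± 0.14 in APLP2-KO (adjusted p = 0.00726). Grin3a rose by 0.38 ± 0.11 in APPsα-DM (adjusted p = 0.0472) and by 0.45 ± 0.11 in APLP2-KO (adjusted p = 0.0174).

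Of 5 measured genes of delta glutamate receptors and their cerebellin ligands, 2 were higher and 1 lower in APPsα-DM. In APLP2-KO 1 was higher and 1 lower. The shares over all genes were 6.59% higher and 7.34% lower in APPsα-DM, and 6.78% higher and 9.70% lower in APLP2-KO. Cbln2, a synapse-organising cerebellin, fell by -1.83 ± 0.15 in APPsα-DM hippocampus and by -1.73 ± 0.15 in APLP2-KO hippocampus. Cbln1 rose by 0.99 ± 0.17 and 1.17 ± 0.17. Of 6 measured genes of glutamate supply and uptake, 2 were higher in APPsα-DM and 1 in APLP2-KO, beside 6.59% and 6.78% of all genes. Slc1a1, a neuronal glutamate transporter, rose by 0.52 ± 0.07 and 0.46 ± 0.07. None of these genes passed between the genotypes.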
